A study of Homo sapiens with 43 samples.

Results

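Whether cells of a human B cell line answer a glucocorticoid in the same way when their BAF chromatin remodellers are inhibited was measured by RNA sequencing 6 h after dexamethasone (Dex). The 8 libraries described here, of 43 in the series, form a design of 4 groups with 2 libraries each: DMSO with vehicle (DMSO-vehicle), DMSO with Dex (DMSO-Dex), BRM014 with vehicle (BRM014-vehicle) and BRM014 with Dex (BRM014-Dex). They were chosen by their labels, and the quantity of interest is the interaction, the log2 Dex response in BRM014 cells minus that in DMSO cells. All came from GM12878, an established human lymphoblastoid line that Epstein-Barr virus immortalised from B lymphocytes, for which the labels name no engineered allele. Cells received 10 µM BRM014 or DMSO at the matching concentration 30 min before 500 nM Dex or vehicle, and the labels do not name the vehicle of the stimulus. The same experiment also had 1 h groups and groups given interferon gamma (IFNg), and a separate stimulus panel of the series, without pretreatment, had other Dex and vehicle libraries. The design has 1 cell line, 1 inhibitor and 1 dose of each agent, and no other means of lowering BAF activity.

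Dex binds the glucocorticoid receptor, a transcription factor held by chaperones in the cytoplasm until it meets its ligand. The bound receptor enters the nucleus, where it raises genes from sites near the sequence of the glucocorticoid response element and lowers inflammatory and immune genes, in lymphoid cells together with genes of growth and survival. BAF complexes slide and evict nucleosomes with the ATPase SMARCA4 or SMARCA2, which BRM014 inhibits, and are known as partners of the receptor at enhancers.

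The 8 libraries held 13.8 to 22.3 M expected counts, with 3.2% to 4.25% of them from mitochondrial genes, a share that was higher in replicate 2 of each of the 4 groups. Replicate libraries differed by more than sampling noise (chi-square per degree of freedom 2.59 to 7.28, the highest for DMSO-vehicle). Nothing in the labels says whether the 2 libraries of a group came from separate cultures. Every p-value reflects the spread between replicate libraries, estimated over all 24 libraries of the experiment and partly shared between genes. That spread may be technical. The labelled cell type was borne out by its markers: all 10 B lymphoblastoid markers were found, at a summed 13300 to 16200 CPM. Of 7 T cell markers CD3D and CD8A were at 0 in all 8 libraries and 5 were under 1 CPM, while the list summed to 34.2 to 73.3 CPM, nearly all of it TRAC. Of 7 monocyte markers 6 were under 1 CPM, and the sum of 21.6 to 35.5 CPM was nearly all VCAN. Of 8 hepatocyte markers APOA2, AFP and FGB were at 0. The part of these markers in the results was not tested. Summed fibroblast markers were 10.4 to 11.7 CPM in DMSO-vehicle cells and 2.04 to 4.37 CPM in the other groups. COL1A1 was the largest part, from 9.62 and 10.7 CPM in DMSO-vehicle to 1.22 and 1.16 CPM in BRM014-Dex cells. In such bulk libraries fewer cells of a type and less RNA per cell cannot be told apart.

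BRM014 removed or weakened the response to Dex far more often than it added to it. Of 15183 genes tested, 419 (2.76%) had an interaction at a Benjamini-Hochberg adjusted p under 0.05 in edgeR's quasi-likelihood test, 261 of them lower (1.72%) and 158 higher (1.04%), and 1757 had an unadjusted p under 0.05. Only 51 of the lower and 13 of the higher values exceeded 2-fold. Most of these genes lost part or all of a response: 233 rose less and 100 fell less in BRM014 cells. Dex changed 2368 genes (15.6%) in DMSO cells, 1224 up and 1144 down, and 1179 (7.77%) in BRM014 cells, 557 up and 622 down. The total of 419 dropped to 267 when BRM014-vehicle replicate 1 was left out, with 84 higher, and the higher count was 91 without DMSO-Dex replicate 2. The Dex total in BRM014 cells was 769 without BRM014-vehicle replicate 2.

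The 3 genes that mark the experiment had 3 different outcomes, which do not cover all that were seen. FKBP5, which encodes a co-chaperone that lowers the receptor's affinity for hormone (ENSG00000096060.14, chromosome 6, 35573585 to 35728583), stood in replicates 1 and 2 at 142 and 136 CPM in DMSO-vehicle, 920.0 and 930.0 in DMSO-Dex, 100. and 108 in BRM014-vehicle and 231 and 222 in BRM014-Dex cells. Dex raised it in both arms, but the BRM014-Dex libraries lay far below the DMSO-Dex libraries. Its log2 Dex response was 2.74 ± 0.050 (SE) with DMSO and 1.12 ± 0.052 with BRM014, an interaction of -1.62 ± 0.072 (adjusted p = 4.73e-16). GLUL, which encodes glutamine synthetase (ENSG00000135821.18, chromosome 1, 182378098 to 182392206), stood at 101 and 91.2 CPM in DMSO-vehicle, 230.5 and 231 in DMSO-Dex, 83.9 and 88.3 in BRM014-vehicle and 83.4 and 76.7 in BRM014-Dex cells. Only the DMSO-Dex libraries stood apart, and the BRM014 groups lay close together. The response was 1.27 ± 0.059 with DMSO and -0.11 ± 0.063 with BRM014, the latter not passing the test (adjusted p = 0.393), and the interaction -1.38 ± 0.086 (adjusted p = 2.42e-12). ACKR3, which encodes an atypical receptor that scavenges the chemokine CXCL12 (ENSG00000144476.5, chromosome 2, 236567787 to 236582354), stood at 12.96 and 10.2 CPM in DMSO-vehicle, 6.45 and 6.15 in DMSO-Dex, 18.3 and 17 in BRM014-vehicle and 27.4 and 35.5 in BRM014-Dex cells. Here Dex lowered the gene in DMSO cells and raised it in BRM014 cells, and no 2 of the groups overlapped. The responses were -0.85 ± 0.17 and 0.84 ± 0.13, with an interaction of 1.69 ± 0.21 (adjusted p = 5.29e-06).

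**Figure D1:**
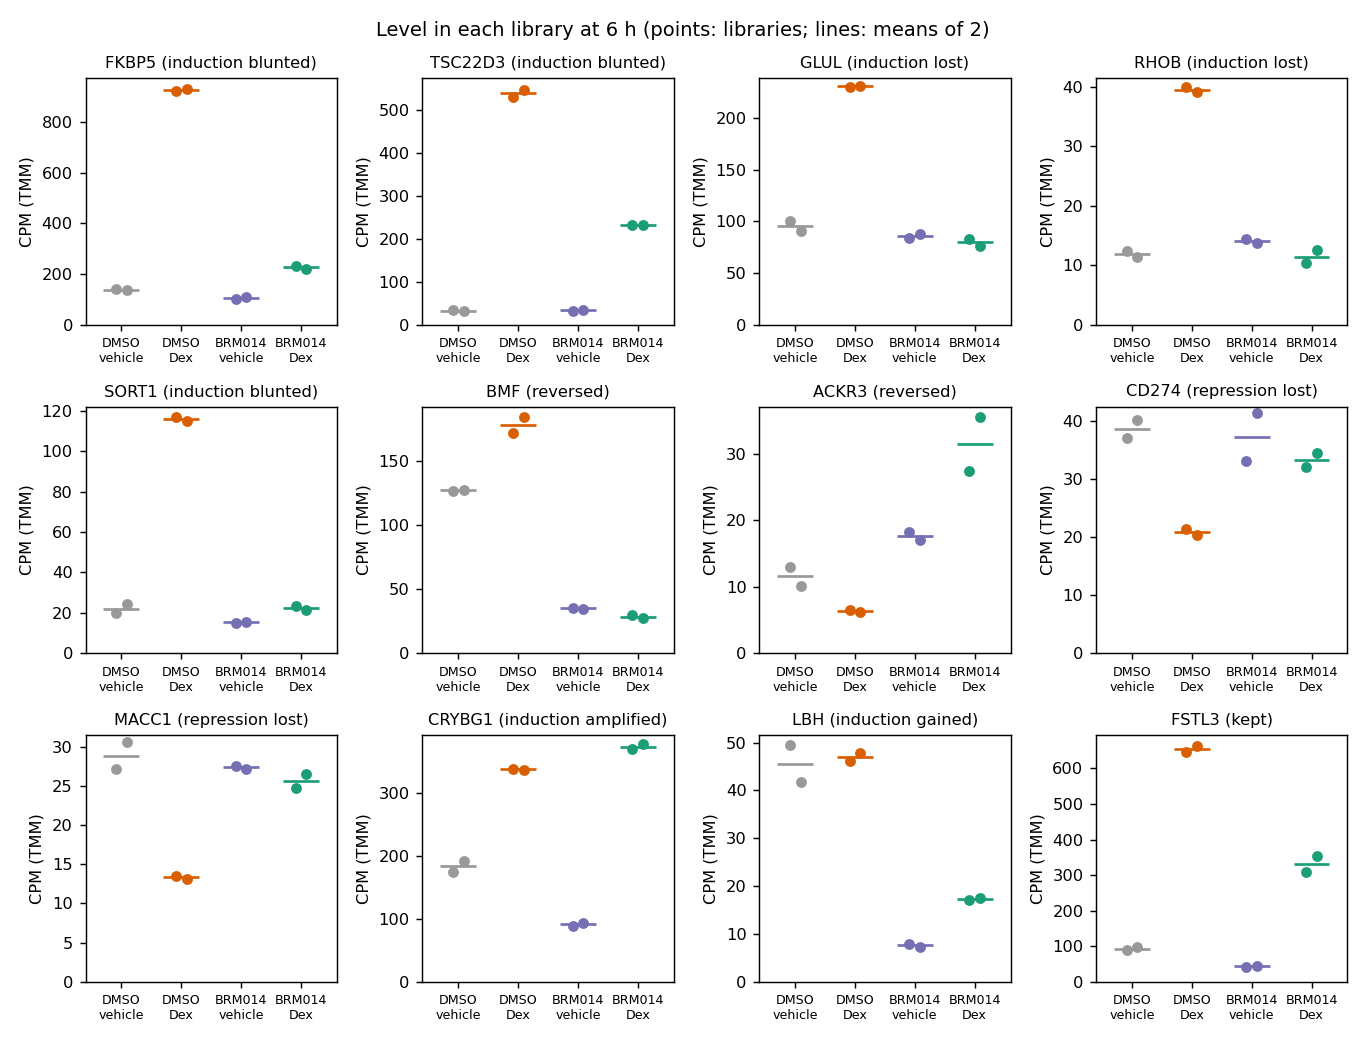
Level of 12 genes in each of the 8 libraries, in CPM after TMM scaling on linear axes that start at 0. Points are libraries and lines are means of 2. In GLUL and RHOB only DMSO-Dex stands high, in FKBP5 and TSC22D3 both Dex groups rise, in ACKR3 the arms go opposite ways, and in FSTL3 both arms rise by a similar factor.

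Genes were put in classes by the calls of Dex in each arm, a description that uses the same libraries as the interaction. Induction was lost in 163 genes, which rose in DMSO cells and did not pass as raised in BRM014 cells, and blunted in 70, which rose in both arms but less with BRM014. Repression was lost in 77 and blunted in 23. Induction was gained in 36 genes and amplified in 13, repression gained in 13 and amplified in 3, while 13 genes went opposite ways in the arms and 8 were called in neither. Nearly all were protein-coding, 159 of 163 in the first class and 73 of 77 of those with lost repression, against 84.4% of all genes tested. The median Dex response went from 0.61 in DMSO to 0.0035 in BRM014 cells where induction was lost, from 1.10 to 0.46 where it was blunted, from -0.49 to -0.03 where repression was lost and from -0.82 to -0.35 where it was blunted. Class sizes moved when libraries were left out. Lost induction fell to 105 without DMSO-Dex replicate 1. Blunted induction fell to between 37 and 41 without any 1 BRM014 library. Lost repression fell to 51 and 45 without DMSO-Dex replicates 1 and 2 and to 45 without BRM014-vehicle replicate 1. Blunted repression was between 7 and 14 without any 1 DMSO-Dex or BRM014 library.

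**Figure D2:**
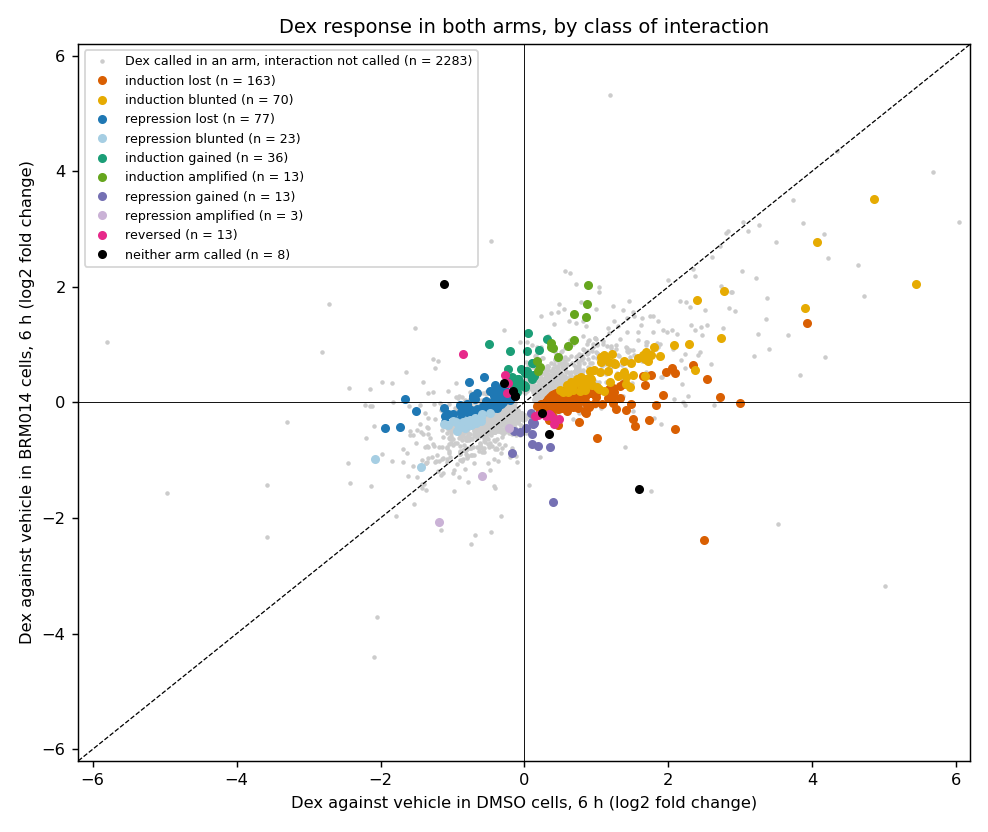
Log2 Dex response in BRM014 cells (vertical) against that in DMSO cells (horizontal) for genes called for Dex in an arm or for the interaction. Colours give the class, grey points have no called interaction (n = 2283), 3 points lie outside the axes, and the dashed line marks equal responses. Lost and blunted inductions (n = 163 and 70) lie to the right below the line and lost and blunted repressions (n = 77 and 23) to the left above it.

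The directions in DMSO cells were also seen in libraries that the interaction does not use. In the stimulus panel, 157 of 163 genes with lost induction and 70 of 70 with blunted induction rose with Dex. Of the 15042 genes tested in both experiments 2014 rose (13.0% of the 15775 tested in the panel alone did). Of the genes with lost and blunted repression 72 of 77 and 23 of 23 fell there, against 1987 of 15042 (12.7% in the panel). Of the 36 genes with gained induction 1 rose and 7 fell in the panel, and the others did not pass there.

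Named genes whose induction was lost had varied roles. RHOB, which encodes a small GTPase (ENSG00000143878.9, chromosome 2, 20447074 to 20449440), stood at 12.4 and 11.4 CPM in DMSO-vehicle, 39.95 and 39.1 in DMSO-Dex, 14.4 and 13.8 in BRM014-vehicle and 10.3 and 12.6 in BRM014-Dex cells. Its DMSO-Dex libraries stood apart, and those of the other groups lay between 10.3 and 14.4 CPM. It rose by 1.74 ± 0.10 with DMSO and had -0.30 ± 0.11 with BRM014, giving an interaction of -2.04 ± 0.15 (adjusted p = 8.91e-11). SAP30, a subunit gene of the SIN3 histone deacetylase complex, stood at 15.2 and 12.7 CPM in DMSO-vehicle, 53.7 and 51.6 in DMSO-Dex, 20.8 and 22.2 in BRM014-vehicle and 21.1 and 25.7 in BRM014-Dex cells, with an interaction of -1.81 ± 0.15 (adjusted p = 4.53e-10). BRM014 alone raised it (0.64 ± 0.11), and Dex then added nothing that passed the test (0.12 ± 0.10, adjusted p = 0.604). LMO2, which encodes a transcription cofactor of blood cells (ENSG00000135363.11, chromosome 11, 33858576 to 33892076), stood at 14.8 and 15.2 CPM in DMSO-vehicle, 40.6 and 45.04 in DMSO-Dex, 3.63 and 4.02 in BRM014-vehicle and 2.62 and 3.59 in BRM014-Dex cells. BRM014 lowered it in vehicle cells (-1.96 ± 0.19), and the 2 BRM014 groups were close to each other, with an interaction of -1.81 ± 0.27 (adjusted p = 5.67e-05). LHFPL6, which encodes a tetraspan membrane protein, stood at 2.40 and 1.79 CPM in DMSO-vehicle, 5.99 and 6.08 in DMSO-Dex, 2.85 and 3.34 in BRM014-vehicle and 2.26 and 2.43 in BRM014-Dex cells, a low level at which its interaction was -1.95 ± 0.32 (adjusted p = 0.000149).

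The MAP kinase phosphatase gene DUSP2 stood at 151 and 139.7 CPM in DMSO-vehicle, 259 and 273 in DMSO-Dex, 103 and 104 in BRM014-vehicle and 88.2 and 105 in BRM014-Dex cells, and its response went from 0.88 ± 0.063 to -0.10 ± 0.068 (interaction -0.98 ± 0.093, adjusted p = 1.40e-08). PMAIP1, which encodes the BH3-only death protein NOXA, stood at 74.1 and 84.8 CPM in DMSO-vehicle, 132 and 134 in DMSO-Dex, 77.2 and 68.2 in BRM014-vehicle and 70.2 and 73.1 in BRM014-Dex cells, with an interaction of -0.76 ± 0.12 (adjusted p = 0.000627). The clock gene PER1 stood at 42.01 and 37.2 CPM in DMSO-vehicle, 70.6 and 71.2 in DMSO-Dex, 35.3 and 35.7 in BRM014-vehicle and 39.3 and 41.9 in BRM014-Dex cells and had responses of 0.85 ± 0.087 and 0.19 ± 0.092 (interaction -0.65 ± 0.13, adjusted p = 0.00162). SLC7A5, which encodes the light chain of a large amino acid transporter, stood at 139 and 129.6 CPM in DMSO-vehicle, 218 and 213 in DMSO-Dex, 197 and 202 in BRM014-vehicle and 215 and 215 in BRM014-Dex cells. BRM014-vehicle cells already reached nearly the level of DMSO-Dex cells, and the interaction was -0.58 ± 0.080 (adjusted p = 1.46e-05). KALRN, a guanine nucleotide exchange factor gene, and CARMIL1, a regulator gene of actin capping protein, had -1.64 ± 0.36 and -1.69 ± 0.30 (adjusted p = 0.0049 and 0.000643). The Dex values of CARMIL1 were 2.34 with DMSO and 0.65 with BRM014.

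Several of the largest lost inductions were of lowly expressed genes and did not keep their calls when 1 library was left out. The sulfatase gene SULF2 (-1.58 ± 0.38) lost its call without DMSO-vehicle replicate 1, DMSO-Dex replicate 1, either BRM014-vehicle library or BRM014-Dex replicate 2 (adjusted p = 0.0594 to 0.073). LGR4, which encodes a receptor of R-spondins (-2.55 ± 0.63), lost it without DMSO-vehicle replicate 1, either DMSO-Dex or BRM014-vehicle library or BRM014-Dex replicate 1 (adjusted p = 0.05 to 0.226). ENPP5 (-2.13 ± 0.46) lost it without BRM014-vehicle replicate 1 (adjusted p = 0.205), as did SIGLEC14 (-1.87 ± 0.39, adjusted p = 0.0844), whose reads can be shared with a near-identical paralogue. These genes stood between 0.267 and 3.41 CPM in vehicle cells. Lost here means only that the gene did not pass as raised in BRM014 cells. LGR4 still had a log2 Dex value of 1.38 there (3.92 with DMSO), SULF2 0.51 (2.09) and ENPP5 0.41 (2.53), while SIGLEC14 had -0.04 (1.83).

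Where induction was blunted, Dex still raised the gene in BRM014 cells. TSC22D3, which encodes the anti-inflammatory leucine zipper protein GILZ (ENSG00000157514.16, chromosome X, 107713221 to 107777342), stood at 33.3 and 31.1 CPM in DMSO-vehicle, 529.8 and 547 in DMSO-Dex, 32.6 and 35.5 in BRM014-vehicle and 233 and 232 in BRM014-Dex cells. The vehicle groups overlapped and BRM014-Dex cells lay between them and DMSO-Dex cells. It rose by 4.07 ± 0.066 and 2.77 ± 0.067, so that 68.1% of the log2 response remained beside an interaction of -1.30 ± 0.094 (adjusted p = 7.13e-11). CXCR4, the receptor gene of CXCL12 (ENSG00000121966.6, chromosome 2, 136114349 to 136119177), stood at 16.96 and 16.8 CPM in DMSO-vehicle, 118 and 112 in DMSO-Dex, 6.42 and 6.86 in BRM014-vehicle and 26.1 and 24.7 in BRM014-Dex cells. BRM014 lowered it in vehicle cells (-1.34 ± 0.13) and 69.6% of its log2 response remained, with an interaction of -0.84 ± 0.15 (adjusted p = 0.000756). SORT1, which encodes the sorting receptor sortilin, stood at 19.97 and 24.2 CPM in DMSO-vehicle, 117 and 115 in DMSO-Dex, 14.98 and 15.5 in BRM014-vehicle and 23.3 and 21.6 in BRM014-Dex cells. BRM014-Dex libraries were at the level of DMSO-vehicle libraries, and the interaction was -1.82 ± 0.13 (adjusted p = 6.64e-11). CREB3L2, which encodes a transcription factor tethered in the endoplasmic reticulum, stood at 271 and 276 CPM in DMSO-vehicle, 593 and 580.3 in DMSO-Dex, 229 and 229.8 in BRM014-vehicle and 262 and 262 in BRM014-Dex cells, with responses of 1.10 ± 0.053 and 0.19 ± 0.054 (interaction -0.91 ± 0.076, adjusted p = 1.13e-09).

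BCL2L11, which encodes the BH3-only protein BIM that mediates glucocorticoid-induced death of lymphoid cells (ENSG00000153094.22, chromosome 2, 111119378 to 111168444), stood at 12.7 and 14.9 CPM in DMSO-vehicle, 49.4 and 47.5 in DMSO-Dex, 7.65 and 7.31 in BRM014-vehicle and 15.2 and 13.7 in BRM014-Dex cells. Its response was 1.80 ± 0.11 with DMSO and 0.95 ± 0.14 with BRM014 (interaction -0.85 ± 0.18, adjusted p = 0.00332), so BRM014-Dex cells reached the level of DMSO-vehicle cells. SMARCA2, a target of the inhibitor (ENSG00000080503.23, chromosome 9, 1980290 to 2193624), was itself Dex-induced, at 676 and 706 CPM in DMSO-vehicle, 1265 and 1239 in DMSO-Dex, 496 and 525 in BRM014-vehicle and 669 and 678 in BRM014-Dex cells. Its response fell from 0.86 ± 0.045 to 0.40 ± 0.045 (interaction -0.46 ± 0.064, adjusted p = 1.56e-05). SMARCA4, the other target, stood at 228 and 215 CPM in DMSO-vehicle, 204 and 197 in DMSO-Dex, 264 and 279 in BRM014-vehicle and 251 and 257 in BRM014-Dex cells and had an interaction of 0.04 ± 0.074 that did not pass (adjusted p = 0.896). VSTM2L had the largest blunted value, -3.40 ± 0.62 (adjusted p = 0.00147), at 0.868 and 0.314 CPM in DMSO-vehicle, 25.2 and 23.04 in DMSO-Dex, 0.259 and 0.680 in BRM014-vehicle and 1.65 and 2.37 in BRM014-Dex cells, and lost its call without BRM014-vehicle replicate 2 (adjusted p = 0.32). NHSL1 (-2.27 ± 0.62) lost its call without each of the 8 libraries in turn (adjusted p = 0.0599 to 0.447).

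Short sequences that resemble the glucocorticoid response element were located near the genes, since the receptor's element is the best known sequence feature of its target genes. The first pattern was AGAACA, 3 bases of any kind, TGT, any base and C, and the palindrome was AGAACA, 3 bases of any kind and TGTTCT, which always matches the first pattern too. Both were searched on both strands of hg38 within 50 kb of each gene start of GENCODE 44. The first pattern was present near 72 of 233 genes with lost or blunted induction (30.9%), 19 of 100 with lost or blunted repression (19.0%) and 3334 of 15074 tested genes (22.1%). The palindrome was present near 10 of the 233 (4.29%), 1 of the 100 (1.00%) and 263 of 15074 (1.74%). For genes that Dex raised more than 2-fold in the panel libraries, the first pattern lay near 29 of 73 whose response was blunted or lost (39.7%) and 64 of 227 others (28.2%). Most of these others were undecided by the rule given below. Of the 13 whose response was kept, 3 had the first pattern (23.1%). The palindrome lay near 4 of the 73 (5.48%), 6 of the 227 (2.64%) and 1 of the 13 (7.69%). A match is a description of letters, not a binding site. The sites of 6 genes with lost or blunted induction and of KIAA0513, whose response was kept, are shown on the strand of the gene, with the bases of both arms of the pattern in capitals. The 6 are genes that the results turn on, while KIAA0513 is not otherwise named.
FKBP5, chr6:35732018-35732031, 3.4 kb upstream of the gene start: gacggGCACAggaTGTTCTttcgc
GLUL, chr1:182389746-182389759, exonic, 2.5 kb after the start: ggaggAGAACAatgTGTTCccttt
PER1, chr17:8154461-8154474, intronic, 2.0 kb after the start: ccaagAGAACAtgaTGTTCccaag
SORT1, chr1:109385715-109385728, intronic, 12.2 kb after the start: cagagAGAACAacaTGTTCataag
TSC22D3, chrX:107767845-107767858, intronic, 9.5 kb after the start: ggcccAGAACAtacTGTGCtgtcc
CXCR4, chr2:136117729-136117742, exonic, 1.4 kb after the start: acgtaAGAACAttcTGTGCacaag
KIAA0513, chr16:85030993-85031007, intronic, 3.2 kb after the start: tgcttAGAACAttgTGTTCTtttct
The sites of the 6 genes with lost or blunted induction have 1 whole and 1 partial arm, and both arms of the KIAA0513 site are whole. This contrast comes from the choice of sites. Palindromes lay near 10 of the 233 genes, none of them shown, and near 1 of the 13 kept genes, the one shown. The kept gene MEF2C-AS1 had a site with 1 whole arm.

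Among transcription factor genes of the KLF family, several members of which are known receptor targets, 4 of 13 tested had a lower interaction (against 1.72% of all genes). The median Dex response of the family was 0.61 in DMSO and 0.096 in BRM014 cells, beside 0.0014 and -0.0026 for all genes. Dex raised 7 of the 13 in DMSO cells (8.06% of all genes) and 5 in BRM014 cells (3.67%), and BRM014 alone lowered 8 (20.1%). KLF2 went the other way, with responses of 1.24 and 1.66. Its interaction of 0.42 (95% interval 0.08 to 0.77) was not called. KLF9 stood at 5.41 and 4.80 CPM in DMSO-vehicle, 24.6 and 25.2 in DMSO-Dex, 2.85 and 3.46 in BRM014-vehicle and 6.28 and 6.46 in BRM014-Dex cells, with responses of 2.29 ± 0.14 and 1.01 ± 0.17 (interaction -1.29 ± 0.22, adjusted p = 0.000319). KLF6 and KLF13 had interactions of -0.53 ± 0.087 and -0.43 ± 0.071 (adjusted p = 0.000199 and 0.000188). KLF7 (-0.39 ± 0.099) lost its call without DMSO-vehicle replicate 2, DMSO-Dex replicate 1 or any 1 BRM014 library (adjusted p = 0.0505 to 0.126).

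Of 38 tested genes in a list of known glucocorticoid-induced genes, 21 rose with Dex in DMSO cells (8.06% of all genes) and 13 in BRM014 cells (3.67%), and 10 had a lower interaction, against 1.72% of all genes (6 without DMSO-Dex replicate 1). Beside FKBP5, TSC22D3, GLUL, CXCR4, KLF9 and PER1 these were TXNIP, PIK3R1, SESN1 and NFIL3. TXNIP, an inhibitor gene of glucose uptake, stood at 376 and 380.5 CPM in DMSO-vehicle, 794 and 795 in DMSO-Dex, 186 and 189.8 in BRM014-vehicle and 333 and 311 in BRM014-Dex cells, and 72.6% of its log2 response remained (interaction -0.29 ± 0.070). It lost its call without DMSO-Dex replicate 1, BRM014-vehicle replicate 2 or BRM014-Dex replicate 2 (adjusted p = 0.0561 to 0.131). NFIL3, SESN1 and PIK3R1 also lost theirs in at least 3 of the 8 omissions, each of them without DMSO-Dex replicate 1 (adjusted p = 0.128, 0.135 and 0.0824) and without BRM014-vehicle replicate 1 (adjusted p = 0.135, 0.0654 and 0.0956). The 2 members with a higher interaction (1.04% of all genes) were ACKR3 and BIRC3, and BIRC3 lost its call without each of the 8 libraries in turn (adjusted p = 0.0506 to 0.165). The median response of the list was 0.45 with DMSO and 0.29 with BRM014.

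Repression by Dex was weaker in BRM014 cells for 100 genes, immune genes among them, and BRM014 itself lowered most of the 100 in vehicle cells. Of the 100 genes with lost or blunted repression, 83 were lower in BRM014-vehicle than in DMSO-vehicle cells (20.1% of all genes) and 3 higher (18.4%). The comparison of the vehicle groups shares libraries with the interaction, so the values are set side by side without a test of their relation. ITGAL, which encodes the alpha chain of the integrin LFA-1 (ENSG00000005844.17, chromosome 16, 30472658 to 30523567), stood at 185 and 181 CPM in DMSO-vehicle, 102 and 109 in DMSO-Dex, 50.9 and 49.2 in BRM014-vehicle and 51.4 and 46.9 in BRM014-Dex cells. BRM014 alone took it below the level that Dex reached without the inhibitor, and Dex added -0.03 ± 0.091 to that (adjusted p = 0.927), with an interaction of 0.77 ± 0.12 (adjusted p = 0.000362). BCL2A1, a survival gene of the BCL2 family, stood at 92.97 and 97.7 CPM in DMSO-vehicle, 56.9 and 52.6 in DMSO-Dex, 47.3 and 46.8 in BRM014-vehicle and 44.6 and 45.4 in BRM014-Dex cells in the same pattern (interaction 0.74 ± 0.11, adjusted p = 3.06e-05). The lymphotoxin gene LTB stood at 82.5 and 83.5 CPM in DMSO-vehicle, 39.4 and 37.2 in DMSO-Dex, 29.1 and 29.9 in BRM014-vehicle and 22.2 and 23.1 in BRM014-Dex cells, with responses of -1.11 ± 0.073 and -0.38 ± 0.085 (interaction 0.73 ± 0.11, adjusted p = 6.37e-05).

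Some genes that BRM014 did not lower by the test in vehicle cells were also lowered less by Dex. CD274, which encodes the checkpoint ligand PD-L1 (ENSG00000120217.13, chromosome 9, 5450503 to 5470566), stood at 37.1 and 40.1 CPM in DMSO-vehicle, 21.4 and 20.3 in DMSO-Dex, 33.1 and 41.3 in BRM014-vehicle and 32.03 and 34.4 in BRM014-Dex cells. The DMSO-Dex libraries alone were low, and the BRM014 groups overlapped. Its responses were -0.89 ± 0.098 and -0.17 ± 0.092, with -0.05 ± 0.090 for BRM014 in vehicle cells and an interaction of 0.72 ± 0.13 (adjusted p = 0.000979). MACC1, a regulator gene of growth factor signalling, stood at 27.2 and 30.6 CPM in DMSO-vehicle, 13.5 and 13.2 in DMSO-Dex, 27.6 and 27.2 in BRM014-vehicle and 24.7 and 26.6 in BRM014-Dex cells, with an interaction of 1.03 ± 0.14 (adjusted p = 1.12e-05). IFIH1, which encodes the RNA sensor MDA5, was higher with BRM014 in vehicle cells (0.24 ± 0.056) and stood at 108 and 100.0 CPM in DMSO-vehicle, 57.2 and 62.2 in DMSO-Dex, 124 and 121 in BRM014-vehicle and 109 and 108 in BRM014-Dex cells (interaction 0.62 ± 0.082, adjusted p = 6.19e-06). The transcription factor gene SOX9 stood at 43.4 and 41.5 CPM in DMSO-vehicle, 21.8 and 18.7 in DMSO-Dex, 39.6 and 43.7 in BRM014-vehicle and 30.7 and 33 in BRM014-Dex cells and had an interaction of 0.67 ± 0.12 (adjusted p = 0.000647). These genes were singled out by their vehicle values after those were seen.

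B cell identity genes had 6 higher interactions among 36 tested (against 1.04% of all genes): CD22, CD24, PAX5, CR2, MS4A1 and FCER2. PAX5, the transcription factor gene that maintains B cell identity (ENSG00000196092.12, chromosome 9, 36833269 to 37034268), stood at 401 and 413 CPM in DMSO-vehicle, 241 and 247 in DMSO-Dex, 374 and 401 in BRM014-vehicle and 289 and 303 in BRM014-Dex cells. Its vehicle groups met at about the same level, and BRM014-Dex libraries lay between them and the DMSO-Dex libraries, with an interaction of 0.35 ± 0.071 (adjusted p = 0.00248). CD22, which encodes an inhibitory co-receptor of the B cell receptor, stood at 193 and 186 CPM in DMSO-vehicle, 101 and 103 in DMSO-Dex, 61.5 and 64.4 in BRM014-vehicle and 48.3 and 46.5 in BRM014-Dex cells (interaction 0.49 ± 0.081, adjusted p = 0.000239). CD24 and the adaptor gene STAP1, the latter not in the list, had 0.82 ± 0.16 and 1.12 ± 0.20 (adjusted p = 0.00122 and 0.000571). CR2, the complement receptor gene, lost its call without DMSO-Dex replicate 1 or BRM014-vehicle replicate 1 (adjusted p = 0.0819 and 0.0966), without either of which the count of the list was 3. MS4A1, the gene of CD20, lost its call with any 1 library left out other than DMSO-vehicle replicate 1 (adjusted p = 0.0855 to 0.196). The list's median response was -0.19 with DMSO and -0.12 with BRM014, and 30 of its 36 genes were lower with BRM014 in vehicle cells (20.1% of all genes).

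Type I interferon-stimulated genes, which encode antiviral proteins, mostly fell with Dex in DMSO cells. Of 32 tested, 29 fell in DMSO cells (7.53% of all genes) and 11 in BRM014 cells (4.10%), and the median response went from -0.63 to -0.22. The interaction was higher in 8, against 1.04% of all genes (IFIT1, IFIT2, IFIT3, IFIH1, OAS1, OAS2, XAF1 and CMPK2). BRM014 alone lowered 30 of the 32 (20.1% of all genes), with a median of -1.07. IFIT2, which encodes an RNA-binding antiviral protein, stood at 43.8 and 44.4 CPM in DMSO-vehicle, 23.9 and 26.5 in DMSO-Dex, 22.4 and 23.7 in BRM014-vehicle and 20.6 and 20.9 in BRM014-Dex cells, so that both BRM014 groups lay slightly below the DMSO-Dex libraries (interaction 0.66 ± 0.12, adjusted p = 0.000802). The count of 8 was less firm than these values: it was 3 to 5 without DMSO-vehicle replicate 1, DMSO-Dex replicate 2, BRM014-vehicle replicate 1 or either BRM014-Dex library, and 13 with no filter on low counts. IFIT1 (1.10 ± 0.27) lost its call without each of the 8 libraries in turn (adjusted p = 0.0626 to 0.19). CMPK2 (1.31 ± 0.28) lost it without BRM014-Dex replicate 1 (adjusted p = 0.0808), and IFIT3 (0.47 ± 0.10) without DMSO-Dex replicate 1, BRM014-vehicle replicate 1 or BRM014-Dex replicate 2 (adjusted p = 0.0526 to 0.0999).

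Among 36 NF-kB and inflammatory targets, 20 fell with Dex in DMSO cells (7.53% of all genes) and 12 in BRM014 cells (4.10%), and the median response went from -0.40 to -0.17. The 5 with a higher interaction (1.04% of all genes) were BCL2A1, LTB, LTA, CCL22 and BIRC3, a count that was 2 or 3 with any 1 library left out other than DMSO-vehicle replicate 2, and 3 with DESeq2 size factors. LTA (0.31 ± 0.087) lost its call without DMSO-vehicle replicate 1, BRM014-vehicle replicate 1 or any 1 Dex library (adjusted p = 0.0787 to 0.306). NR3C1, the gene of the receptor itself (ENSG00000113580.14, chromosome 5, 143277931 to 143435512), stood at 194 and 204 CPM in DMSO-vehicle, 129.8 and 125 in DMSO-Dex, 131 and 134 in BRM014-vehicle and 119.9 and 118 in BRM014-Dex cells. Dex lowered it by a log2 value of -0.64 ± 0.061 in DMSO cells and -0.15 ± 0.063 in BRM014 cells, the latter not passing (adjusted p = 0.153), with an interaction of 0.49 ± 0.088 (adjusted p = 0.000647). Its 3 lower groups, DMSO-Dex and both with BRM014, lay between 118 and 134 CPM.

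**Figure D3:**
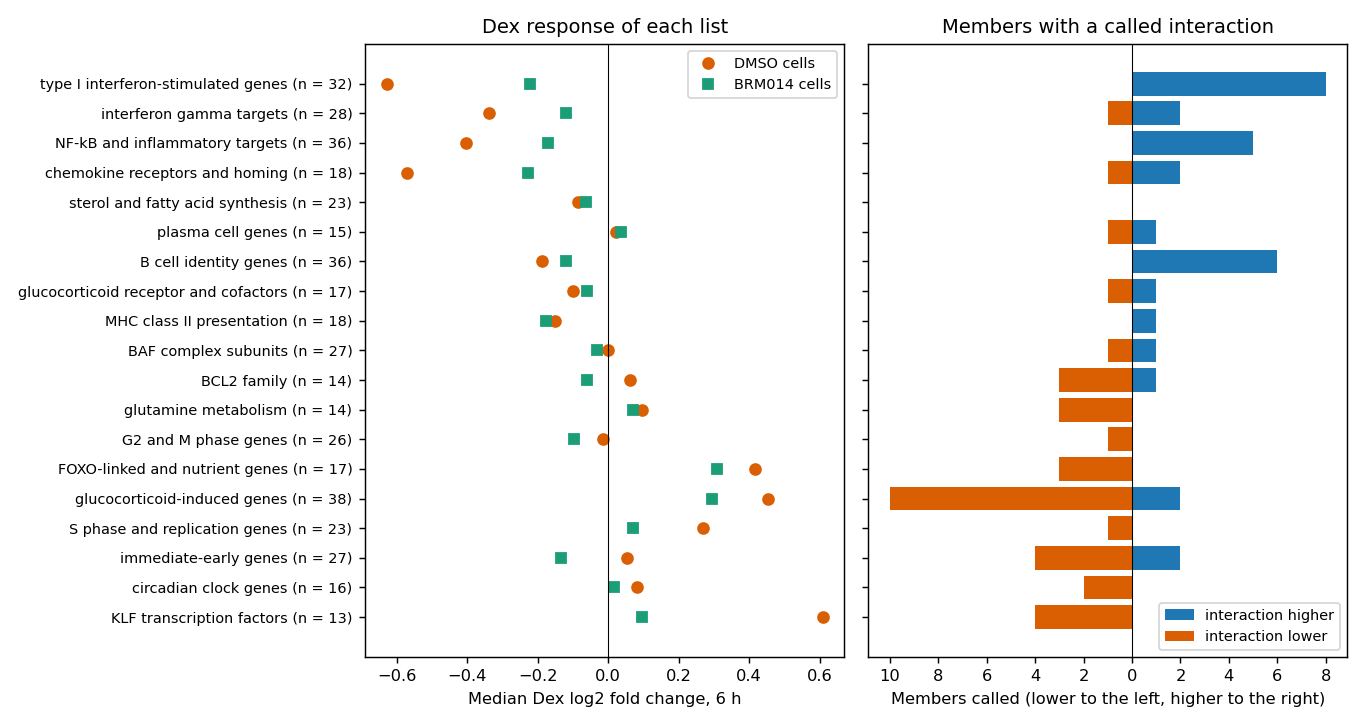
Left, median log2 Dex response of each gene list in DMSO (circles) and BRM014 cells (squares). Right, number of members with a lower (left bars) or higher (right bars) interaction. KLF genes go from 0.61 to 0.096 and type I interferon-stimulated genes from -0.63 to -0.22, and the lists share some members.

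A response was added or enlarged by BRM014 in fewer genes. CRYBG1, which encodes an actin-binding protein (ENSG00000112297.14, chromosome 6, 106360717 to 106572017), stood at 175 and 193 CPM in DMSO-vehicle, 339 and 338 in DMSO-Dex, 89.2 and 93.7 in BRM014-vehicle and 371 and 378 in BRM014-Dex cells. BRM014 lowered the vehicle level (-1.01 ± 0.075) and both Dex groups ended close together, so the response grew from 0.88 ± 0.071 to 2.03 ± 0.073 (interaction 1.16 ± 0.10, adjusted p = 4.41e-08). LBH, which encodes a transcription cofactor (ENSG00000213626.12, chromosome 2, 30231534 to 30323730), stood at 49.4 and 41.7 CPM in DMSO-vehicle, 46.1 and 47.9 in DMSO-Dex, 7.91 and 7.25 in BRM014-vehicle and 17.1 and 17.6 in BRM014-Dex cells. Dex gave 0.05 ± 0.075 with DMSO (adjusted p = 0.744) and 1.20 ± 0.11 with BRM014, but the BRM014-Dex level stayed below that of both DMSO groups (interaction 1.15 ± 0.13, adjusted p = 7.65e-07). PRAG1, which encodes a pseudokinase, stood at 63.9 and 56.7 CPM in DMSO-vehicle, 53.5 and 51.3 in DMSO-Dex, 42.7 and 45.4 in BRM014-vehicle and 82.5 and 81.5 in BRM014-Dex cells, where only BRM014-Dex cells were above the DMSO-vehicle level (interaction 1.09 ± 0.097, adjusted p = 3.57e-09). ASXL1, a chromatin regulator gene linked to Polycomb, stood at 192 and 202 CPM in DMSO-vehicle, 246 and 266 in DMSO-Dex, 178 and 172 in BRM014-vehicle and 359 and 358 in BRM014-Dex cells, and its response grew from 0.38 ± 0.057 to 1.03 ± 0.057 (interaction 0.66 ± 0.081, adjusted p = 2.12e-06). CDK5R1, an activator gene of the kinase CDK5, had an interaction of 0.84 ± 0.12 (adjusted p = 1.56e-05). The innate immune adaptor gene STING1 had 0.84 ± 0.19 (adjusted p = 0.00728), and lost its call without DMSO-vehicle replicate 1, DMSO-Dex replicate 2 or BRM014-vehicle replicate 2 (adjusted p = 0.0509, 0.0508 and 0.0898). The counts of these classes also moved. Gained induction was 22 and 20 without DMSO-vehicle replicate 2 and BRM014-vehicle replicate 1, and amplified induction 6 to 8 without DMSO-vehicle replicate 1 or any 1 DMSO-Dex or BRM014-vehicle library.

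Besides ACKR3, 12 genes went opposite ways in the arms. BMF, which encodes a BH3-only death protein (ENSG00000104081.13, chromosome 15, 40087890 to 40108892), stood at 126 and 128 CPM in DMSO-vehicle, 172 and 184 in DMSO-Dex, 35.2 and 34.6 in BRM014-vehicle and 29.5 and 27.5 in BRM014-Dex cells. BRM014 lowered it in vehicle cells (-1.86 ± 0.063), and within that lower range Dex decreased it further, with responses of 0.49 ± 0.055 and -0.29 ± 0.071 (interaction -0.78 ± 0.089, adjusted p = 6.37e-07). The zinc finger gene CASZ1 stood at 25.9 and 26.5 CPM in DMSO-vehicle, 34.1 and 35.6 in DMSO-Dex, 18.9 and 23 in BRM014-vehicle and 15.98 and 16.4 in BRM014-Dex cells, with responses of 0.41 ± 0.087 and -0.38 ± 0.098 (interaction -0.78 ± 0.13, adjusted p = 0.000266). DUSP5, a phosphatase gene of ERK, and PIK3C2B, a class II phosphoinositide kinase gene, went the other way, with interactions of 0.56 ± 0.086 and 0.75 ± 0.11 (adjusted p = 5.71e-05 and 3.67e-05). With any 1 DMSO-Dex or BRM014 library left out, 6 to 8 genes were counted as reversed in place of 13, while these 5 named genes kept their interaction calls in every omission. Among 14 BCL2 family genes tested 3 had a lower interaction (1.72% of all genes), the death genes BCL2L11, BMF and PMAIP1, and 1 a higher one (1.04%), the survival gene BCL2A1. The higher count was 2 with DESeq2's Wald test.

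Immediate-early genes divided. EGR1, a zinc finger gene induced by growth signals, stood at 13.4 and 11.1 CPM in DMSO-vehicle, 15.8 and 15.2 in DMSO-Dex, 8.82 and 9.80 in BRM014-vehicle and 5.86 and 5.13 in BRM014-Dex cells. Dex gave 0.35 ± 0.14 with DMSO, which did not pass (adjusted p = 0.0921), and lowered it with BRM014 (-0.77 ± 0.17), an interaction of -1.12 ± 0.22 (adjusted p = 0.00187). Its relative EGR2 stood at 50.4 and 50.4 CPM in DMSO-vehicle, 21.6 and 22.6 in DMSO-Dex, 17.6 and 20.2 in BRM014-vehicle and 3.72 and 5.24 in BRM014-Dex cells and fell in both arms, by a larger factor with BRM014 (-1.19 ± 0.096 and -2.07 ± 0.15, interaction -0.88 ± 0.18), a call lost without BRM014-Dex replicate 1 (adjusted p = 0.0729). In all, 4 of 27 such genes had a lower interaction, against 1.72% of all genes (DUSP2, KLF6, EGR1 and EGR2), and 2 a higher one, against 1.04% (DUSP5 and ATF3). ATF3 (1.00 ± 0.24) lost its call without replicate 2 of any of the 4 groups (adjusted p = 0.054 to 0.102), and without any of these except that of DMSO-vehicle the higher count was 1. The largest value among gained repressions, -2.11 ± 0.42 for ATP6V1G2-DDX39B, belongs to a readthrough gene whose reads overlap its component genes and is uncertain, and it was lost without replicate 2 of BRM014-vehicle or BRM014-Dex (adjusted p = 0.0612 and 0.08).

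To ask what share of Dex-responsive genes was affected without choosing them in the same libraries, genes called and changed over 2-fold by Dex in the panel were taken (515 genes, of which 464 were tested here). Of 303 raised genes, 73 had a lower interaction (24.1%, against 1.72% of all genes) and 1 a higher one (1.04% of all genes). Of 161 lowered genes, 11 had a higher interaction (6.83%, against 1.04% of all genes) and 1 a lower one (1.72% of all genes). The interaction value opposed the panel response in 253 of the 303 and 115 of the 161. In DMSO cells 223 of the raised genes rose (8.06% of all genes), and in BRM014 cells 113 (3.67%), with median responses of 1.39 and 0.75. Of the lowered genes 82 fell with DMSO (7.53% of all genes) and 42 with BRM014 (4.10%), with medians of -1.03 and -0.63. The share of raised genes that were called blunted was 24.1%, 25.3%, 22.0% and 24.2% from the smallest to the largest panel responses (141, 79, 50 and 33 genes). The median interaction in the same order was -0.506, -0.825, -1.02 and -2.25. The median confidence interval of the interaction also widened, reaching 0.718, 0.873, 1.33 and 3.31 to either side. The similar shares thus do not show a similar loss at all response sizes, and the part of the interval in them was not tested. The count of 11 was 6 without DMSO-Dex replicate 2, 7 without BRM014-vehicle replicate 1 and 5 without BRM014-Dex replicate 1.

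A response was counted as kept where the interaction was not called and its 95% interval lay within 0.5 of 0 on the log2 scale. That held for 20 of the 464 genes, 13 raised and 7 lowered, and for 71 when the interval could reach 1. The remaining 358 were undecided: the median interval reached 1.01 to either side for raised genes and 1.11 for lowered ones, wider than the limit. FSTL3, which encodes a secreted inhibitor of activin (ENSG00000070404.9, chromosome 19, 676392 to 683392), stood at 89.2 and 97.3 CPM in DMSO-vehicle, 646 and 662 in DMSO-Dex, 42.7 and 44.5 in BRM014-vehicle and 308 and 355 in BRM014-Dex cells. Its vehicle level was lower with BRM014 (-1.10 ± 0.078), but Dex raised it by 2.81 ± 0.068 and 2.92 ± 0.075, and the interaction was 0.12 ± 0.10 (95% interval -0.09 to 0.33). GRIN2A, an NMDA receptor subunit gene, stood at 9.68 and 10.7 CPM in DMSO-vehicle, 61.9 and 73.3 in DMSO-Dex, 11.02 and 9.52 in BRM014-vehicle and 67.5 and 65.7 in BRM014-Dex cells, with vehicle and Dex groups alike in both arms (interaction -0.02 ± 0.17, interval -0.37 to 0.34). ITPR1, which encodes a calcium channel of the endoplasmic reticulum, and the formin gene DAAM1 had interactions of 0.06 ± 0.15 (interval -0.26 to 0.38) and -0.03 ± 0.10 (interval -0.23 to 0.18). Among the lowered genes, TCF7 and ID3, both transcription regulator genes, had 0.04 ± 0.083 (interval -0.13 to 0.21) and 0.23 ± 0.13 (interval -0.03 to 0.49). Kept by the rule does not mean equal: for SERTAD2 and DENND3 the whole interval lay below 0 (-0.39 to -0.06 and -0.46 to -0.09). The antisense gene MEF2C-AS1, also in the set (0.02 ± 0.23), is uncertain since strand use in the counting is not given.

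**Figure D4:**
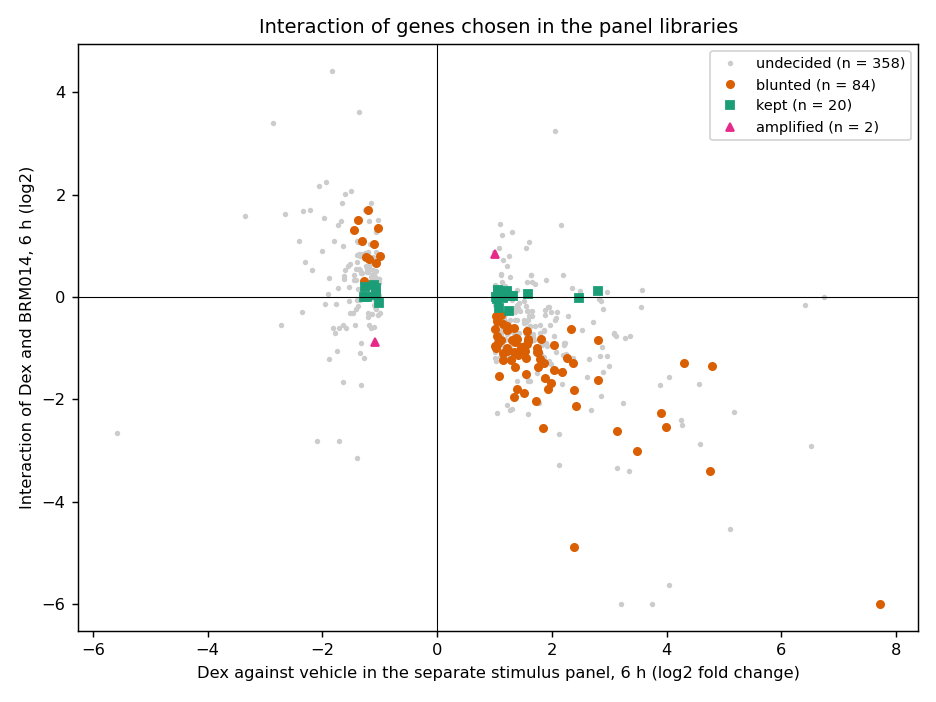
Interaction at 6 h (vertical, log2) against the Dex response in the separate panel libraries (horizontal, log2) for the 464 genes that changed over 2-fold there. Orange circles were blunted (n = 84), green squares kept (n = 20), pink triangles amplified (n = 2) and grey points undecided (n = 358), and 3 points are drawn at the axis limit of 6. Blunted raised genes, which lie below 0 by definition, occur at all sizes of panel response, and kept genes lie close to 0 by definition.

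Early and later Dex-responsive genes are given side by side. Of 24 panel-raised genes that also rose at 1 h in DMSO cells (0.362% of all genes), 13 were blunted at 6 h (54.2%), against 60 of 279 others (21.5%). Of all genes 1.72% had a lower interaction at 6 h. The interval of the early genes was also narrower (median 0.326 to either side, against 1.12), and its part in this difference was not tested. At 1 h the interaction was called in 18 genes (0.119%), 12 lower (0.0790%) and 6 higher (0.0395%), in libraries other than those of 6 h. Among those 12, 8 belonged to the genes with blunted and 2 to those with lost induction at 6 h. TSC22D3 had a 1 h response of 2.95 ± 0.067 with DMSO and 1.41 ± 0.068 with BRM014 (interaction -1.53 ± 0.095, adjusted p = 3.88e-12), close to its 6 h interaction of -1.30 ± 0.094. KLF6 and DUSP2 had 1 h interactions of -0.55 ± 0.086 and -0.56 ± 0.092 (adjusted p = 0.00155 and 0.00266), and KLF9 and PER1 of -1.05 ± 0.21 and -0.62 ± 0.13 (adjusted p = 0.0281 and 0.0416). NFIL3, a clock-linked repressor gene, had -1.65 ± 0.24 at 1 h (adjusted p = 0.000604). SERTAD2 was blunted at 1 h (-0.46 ± 0.082, adjusted p = 0.00603) and kept at 6 h, and the difference between the times, 0.24 ± 0.11, did not pass (adjusted p = 0.597).

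FKBP5 had no 1 h response that passed in either arm (0.08 ± 0.052 and 0.06 ± 0.053, adjusted p = 1 and 1), and its interaction differed between the times by -1.60 ± 0.10 (adjusted p = 1.32e-11). GLUL and RHOB had small 1 h responses with DMSO (0.30 ± 0.061 and 0.54 ± 0.11) and differed between the times by -1.10 ± 0.12 and -1.33 ± 0.22 (adjusted p = 2.57e-06 and 0.000827). EGR2 changed sign: Dex lowered it less with BRM014 at 1 h (interaction 0.62 ± 0.13, adjusted p = 0.0401) and more at 6 h, a difference of -1.50 ± 0.22 (adjusted p = 0.000104). Such a difference was called for 92 genes (0.606%), 68 lower and 24 higher at 6 h.

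The effect of BRM014 in Dex cells was also set against its effect in IFNg cells, a comparison in which the vehicle libraries cancel. It was lower with Dex for 376 genes (2.48%) and higher for 232 (1.53%). The difference also holds any change of the IFNg response by BRM014, as may apply to interferon targets such as CD274 and IFIT3. FKBP5, GLUL and TSC22D3 were lower by -1.75 ± 0.073, -1.46 ± 0.087 and -1.53 ± 0.10 (adjusted p = 8.15e-17, 4.96e-13 and 3.26e-12), and ACKR3, CD274 and MACC1 higher by 1.64 ± 0.21, 1.06 ± 0.13 and 1.01 ± 0.14 (adjusted p = 6.65e-06, 2.25e-06 and 1.42e-05). For some genes whose repression by Dex was weakened, no difference from IFNg cells passed: CD22, NR3C1 and IFIT3 had 0.13 ± 0.082, 0.27 ± 0.088 and -0.17 ± 0.10 (adjusted p = 0.554, 0.0839 and 0.498). The IFNg interaction at 6 h was called in 30 genes (0.198%), 23 lower (0.151%) and 7 higher (0.0461%). It shares the vehicle libraries of both arms with the Dex interaction, so their values are only set side by side, 0.49 ± 0.081 for Dex and 0.36 ± 0.080 for IFNg in CD22, and -1.62 ± 0.072 and 0.13 ± 0.076 in FKBP5.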

How the data were processed

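The authors deposited RSEM expected counts for each gene, unscaled, per the file headers. STAR, RSEM and hg38 are named in the submitters' processing notes, while versions, settings, annotation and use of strand are not given in the sources used here. Of 59526 identifiers per file, 58780 are Ensembl genes (58252 matched a symbol of GENCODE 44), and the other 746 hold 0 counts and were left out. Between 4.15% and 4.74% of values in the GM12878 pretreatment and panel libraries used were not whole, and all were rounded.

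All 24 pretreatment libraries (12 groups) were fitted in edgeR 4.0.16 (R 4.3.3) to share 1 estimate of the spread, with TMM, filterByExpr by group (15183 genes), robust quasi-likelihood tests and no covariate. Residual degrees of freedom were 12 and the common biological coefficient of variation 0.049. Tests are 2-sided, with calls made at an adjusted p (Benjamini-Hochberg, over all genes tested) under 0.05. Standard errors are those of the fitted coefficients scaled by the moderated quasi-dispersion. The 15 panel libraries (8 groups, 15775 genes) had their own fit, with Dex against the mean of DMSO and PBS. CPM values are scaled by TMM. The pipeline was tested on simulated data.

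Genes were named by a rule: the 3 markers, TSC22D3, NR3C1, SMARCA4 and SMARCA2; the 15 lowest and 15 highest called interactions with a group mean of at least 5 CPM; up to 4 per class; the 10 largest rises and 5 largest falls among kept genes; and up to 4 called members per list. Not all of these are named, other names listed beside counts were chosen after their values were seen, and members and lists were chosen with earlier results of these data known. Replicate numbers were not taken to pair the samples, and the labels do not say whether they do. Of the 6 correlations of deviations between the 4 groups, -0.0736 to 0.121, 1 was over 0.1. Over all 12 groups of the experiment, 8 of 66 were over 0.1 (highest 0.153). Correlations this weak cannot decide whether samples were paired, and the mitochondrial share differed in the same direction between the replicates of each of the 4 groups. Alternatives were DESeq2 size factors, DESeq2 1.42.0, no filter, the 8 libraries alone, a replicate block, each library left out, panel DMSO alone as control, responders taken from the DMSO arm and a wider interval for kept genes. Counts of list members under these alternatives were added after seeing the data.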

Additional observations from a re-analysis of the deposited data

Results flagged for a closer look

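The Dex by BRM014 interaction at 6 h differed from that at 1 h, by the test of the difference itself in edgeR, for 92 genes. Among named genes with lost or blunted induction, the 6 h minus 1 h differences were -1.98 for LHFPL6, -1.94 for KALRN, -1.87 for SORT1, -1.63 for LMO2, -1.60 for FKBP5, -1.40 for SAP30, -1.33 for RHOB, -1.10 for GLUL, -0.79 for CREB3L2, -0.55 for SLC7A5, -0.48 for SMARCA2 and -0.45 for KLF13. All of these had a 1 h interaction that did not pass. Among genes with lost repression they were 1.5 for CMPK2, 1.16 for STAP1, 0.95 for MACC1, 0.81 for ITGAL, 0.64 for IFIH1 and 0.53 for NR3C1. For gained or amplified induction they were 1.10 for CRYBG1, 1.04 for LBH, 1.01 for PRAG1, 0.99 for CDK5R1 and 0.72 for ASXL1. The reversed genes BMF and PIK3C2B had -0.67 and 0.67, and EGR2 had -1.5, with 1 h and 6 h interactions of opposite sign. The cause of these differences was not tested.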

How the results depend on the processing

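No called named gene reversed its sign under any alternative tried, and 48 of 89 called named genes kept their call in every one, among them FKBP5, GLUL, RHOB, BMF, ACKR3 and CRYBG1. Replicate numbers were not taken to pair the samples, and with the replicate block 433 genes were called for the interaction, 163 higher and 270 lower. DESeq2 size factors moved no total, class or responder count by over 1.5 times, but did move list counts: NF-kB higher from 5 to 3 and lower from 0 to 1, plasma cell higher from 1 to 0 and G2 and M phase lower from 1 to 2. DESeq2's Wald test called 348 genes, 127 higher and 221 lower, and 3 genes in the class called in neither arm. With no filter that class had 15 genes, blunted repression 37 and amplified repression 6, and with the 8 libraries alone amplified repression had 5. Some named genes lost their calls in these settings too. In the Wald test they included KLF7, NFIL3, SESN1, LTA and E2F1 (adjusted p = 0.0578, 0.0813, 0.0712, 0.079 and 0.0573). In edgeR, LTA and IFIT1 lost theirs with DESeq2 size factors (adjusted p = 0.0588 and 0.0529). LTA and CTSS did with the 8 libraries alone (adjusted p = 0.0926 and 0.0563). With an interval of 1 the kept genes were 71, and with responders taken from the DMSO arm 1 was amplified. The cause of these shifts was not tested.

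With 1 library left out the interaction total was 267 to 375, with 84 to 131 higher and 176 to 244 lower. The classes ranged over 105 to 151 (induction lost), 37 to 60 (blunted), 45 to 64 (repression lost), 7 to 24 (blunted), 20 to 34 (induction gained), 6 to 12 (amplified), 9 to 19 (repression gained), 0 to 2 (amplified), 6 to 12 (reversed) and 2 to 9 (neither arm). Blunted panel responders were 56 to 66 raised and 5 to 11 lowered, kept 14 to 20 and amplified 1 to 2. Dex totals were 1621 to 2341 with DMSO and 769 to 1219 with BRM014, and BRM014 in vehicle cells gave 4406 to 5827. With 2 libraries a group, the interval of most panel responders is wider than the limit for a kept response.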

Other observations

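Of 23 S phase and replication genes 14 rose with Dex in DMSO cells (8.06% of all genes) and 1 in BRM014 cells (3.67%), with medians of 0.27 and 0.072, while 16 were already higher with BRM014 in vehicle cells (18.4%). Only E2F1, which encodes an activator of S phase genes, had a called interaction (-0.39 ± 0.10, adjusted p = 0.0324 in edgeR), a share near the 2.76% of all genes, and it was lost without any 1 DMSO library, BRM014-vehicle replicate 2 or BRM014-Dex replicate 1 (adjusted p = 0.0555 to 0.258). The 26 G2 and M phase genes had median Dex responses of -0.014 with DMSO and -0.097 with BRM014. In glutamine metabolism 3 of 14 genes had a lower interaction (1.72% of all genes): GLUL, SLC7A5 and GLUD1, which encodes glutamate dehydrogenase (-0.36 ± 0.072, adjusted p = 0.00222).

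Of 18 MHC class II presentation genes 9 fell with Dex in each arm (7.53% of all genes with DMSO and 4.10% with BRM014), with medians of -0.15 and -0.18. The 1 called interaction, a share near that of all genes, was that of CTSS, the gene of the protease cathepsin S, with an interaction of 0.29 ± 0.075 (adjusted p = 0.0266) that was lost without BRM014-vehicle replicate 2, BRM014-Dex replicate 1, DMSO-vehicle replicate 2 or either DMSO-Dex library (adjusted p = 0.103 to 0.239). The 23 sterol and fatty acid synthesis genes had medians of -0.087 and -0.062. Among 27 BAF subunit genes SMARCA2 had a lower (1.72% of all genes) and SMARCC1 a higher interaction (1.04%) (0.28 ± 0.066), the latter lost without either DMSO-Dex library, BRM014-vehicle replicate 1 or BRM014-Dex replicate 2 (adjusted p = 0.0501 to 0.111).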
